A study of Homo sapiens with 2 samples.

Results

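The genes described here are 10 that write, erase or maintain DNA methylation, or that form the core of Polycomb repressive complex 2 (PRC2): DNMT1, UHRF1, DNMT3A, DNMT3B, TET1, TET2, TET3, EZH1, EZH2 and SUZ12. They were chosen by name, and each matched 1 of the 19607 gene symbols in the deposited expression table. The RNA came from CWR22rv1, a human prostate cancer cell line. One library was from cells labelled as a knockout of both Akt1 and Akt2 (Akt1/2 DKO) and the other from cells labelled wild type (control cells). The knockout was made by CRISPR/Cas9 with puromycin selection and isolation of monoclonal cells. The labels do not name the clone that was sequenced. An effect of the knockout and a property of a clone cannot be told apart from 1 knockout library. With 1 library per condition no difference has a replicate check, and the 95% intervals cover counting error only. RNA was measured, and neither DNA methylation nor histone modification was.

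DNA methylation is laid down on unmethylated CpG sites by DNMT3A and DNMT3B and is copied to the new strand after replication by DNMT1, which UHRF1 brings to hemimethylated DNA. The TET enzymes are erasers rather than writers: they oxidize methylated cytosine as the first step of its removal. PRC2 methylates histone H3 at lysine 27, with EZH2 or EZH1 as its catalytic subunit and SUZ12 as an obligate partner, and EZH2 is well known for high levels in advanced prostate cancer.

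The libraries held 9970820 reads (control) and 10718650 reads (Akt1/2 DKO) over genes. As a check of the labels, AKT1 had 2645 reads in control cells and 591 in Akt1/2 DKO cells, 4.96-fold lower after scaling, and AKT2 had 2362 and 667, 3.93-fold lower. All 7 luminal prostate markers examined had reads in both libraries, their sum being 11653 in control and 15255 in Akt1/2 DKO cells. The 3 basal markers summed to 2 and 0 reads and the 3 leukocyte markers to 51 and 69. The 6 fibroblast markers summed to 1035 and 217 reads, of which VIM, which carcinoma cells also express, gave 897 and 84. The 4 neuroendocrine markers summed to 2496 and 4198 reads, with CHGA at 340 and 2 and INSM1 at 0 in both. The part of these marker differences in the values below was not tested.

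The promoter windows of the 10 genes fell into those with and those without a match to the E2F motif. E2F factors drive genes of S phase, and the motif was searched in its spellings TTTCCCGC, TTTGGCGC, TTTGCCGC and TTTCGCGC on both strands, in RefSeq windows (GRCh38.p14) of 250 bases before to 50 bases after each annotated start. All 10 genes had a window, 22 in all. The matches are shown because they fall in the maintenance and PRC2 genes, each with 11 bases on either side, 5′ to 3′ on the strand of the gene and with the motif in capitals.
DNMT1, chr19:10194937-10194966, minus strand: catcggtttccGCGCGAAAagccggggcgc
UHRF1, first start, chr19:4909476-4909505, plus strand: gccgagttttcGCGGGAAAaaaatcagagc
UHRF1, next start, chr19:4909973-4910002, plus strand: cccgagcccgaTTTCGCGCgccctgagttc
EZH1, chr17:42745137-42745166, minus strand: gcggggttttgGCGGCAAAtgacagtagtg
EZH2, chr7:148884272-148884301, minus strand: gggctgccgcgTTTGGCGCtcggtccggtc
SUZ12, chr17:31936807-31936836, plus strand: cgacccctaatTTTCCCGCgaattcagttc

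A match stood in 5 of the 10 genes, in 6 of their 22 windows (27.3%). Over all 35116 windows in the table the share was 3.31%, and over the 15195 windows of genes that passed the read filter it was 4.74%. Counted per gene, 6.49% of the genes tested had a match in some window. In EZH2 the motif began 2 bases into the annotated transcript and in DNMT1 2 bases before the start. In UHRF1 it lay 14 bases before the first start and, in the other match, 160 bases before the next start. In SUZ12 it lay 189 bases upstream and in EZH1 115 bases upstream. None of the windows of DNMT3A (6), DNMT3B (1), TET1 (3), TET2 or TET3 held these letters. The FOXO motif TGTTTAC, of interest because Akt restrains the FOXO factors, was found on the strand opposite to the gene in 1 window of TET2, 2 bases before the start, and in EZH1, 39 bases after it, against 3.42% of all windows and 2.61% of those of genes tested. A match is a description of sequence and not a site shown to be bound.

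The windows also differed in CpG content, which is shown for the 2 members with the fewest reads in Akt1/2 DKO cells beside SUZ12, with every CpG in capitals over 200 bases before to 30 after the start.
TET1, chr10:68560137-68560366, plus strand: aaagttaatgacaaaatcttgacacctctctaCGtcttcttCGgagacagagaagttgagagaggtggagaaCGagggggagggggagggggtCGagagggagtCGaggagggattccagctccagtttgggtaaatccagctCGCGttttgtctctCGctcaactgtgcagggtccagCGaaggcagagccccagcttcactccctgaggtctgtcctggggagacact
DNMT3B, chr20:32779652-32779881, plus strand: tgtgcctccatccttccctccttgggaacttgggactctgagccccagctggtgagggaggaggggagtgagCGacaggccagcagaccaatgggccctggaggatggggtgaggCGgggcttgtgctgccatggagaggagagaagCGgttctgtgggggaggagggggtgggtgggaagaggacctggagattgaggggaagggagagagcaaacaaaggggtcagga
SUZ12, chr17:31936807-31937036, plus strand: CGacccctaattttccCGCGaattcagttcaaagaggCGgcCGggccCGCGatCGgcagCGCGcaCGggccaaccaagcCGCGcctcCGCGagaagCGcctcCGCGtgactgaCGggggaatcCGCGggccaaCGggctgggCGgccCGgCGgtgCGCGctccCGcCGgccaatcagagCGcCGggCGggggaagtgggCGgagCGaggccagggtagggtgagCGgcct

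The stretch of SUZ12 held 35 CpGs, that of TET1 9 and that of DNMT3B 3. Over their full windows the 3 TET1 starts had 10, 6 and 11 CpGs and the DNMT3B start 3, against a median of 25 in the windows of genes tested. The EZH2 windows had 45 and 46 and the DNMT1 window 30. The 6 windows of DNMT3A, which was also lower in Akt1/2 DKO cells, had 18 to 46. The windows of TET2, which was not lower, had 13 and 35. Any link between CpG content and the fold changes was not tested. The DNMT3B window is not that of its outermost start: it lies 17.5 kb inside the gene as GENCODE release 29 draws it, where 1 of 6 transcripts begins. The outer promoter of DNMT3B was not analysed here. No GENCODE transcript begins within 100 bases of the 3 TET1 starts, of which the one shown lies 0.319 kb from the GENCODE start and the others 39.6 and 39.8 kb from it. The DNMT1 window lies 36.3 kb inside the outer start, where 2 of 28 transcripts begin.

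DNMT3A, DNMT3B and TET1, 3 of the 10 genes, were at least 1.5-fold lower in Akt1/2 DKO cells, and none was at least 1.5-fold higher. The background in this comparison was high. Of 13318 genes with at least 10 reads in both libraries together, 15.0% were at least 1.5-fold lower and 15.9% at least 1.5-fold higher, and among the 10956 genes with at least 100 reads the shares were 11.9% and 11.3%. All 10 genes passed the read filter, with 58 to 8128 reads in both libraries together. Their median log2 fold change was 0.04 beside 0.01 over all genes tested. Counting intervals lay above no change for 4 genes (DNMT1, UHRF1, TET3 and EZH2), below it for the same 3 that passed 1.5-fold, and across it for TET2, EZH1 and SUZ12. Over all genes tested, 29.8% had an interval above no change and 29.4% below it.

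**Figure D1:**
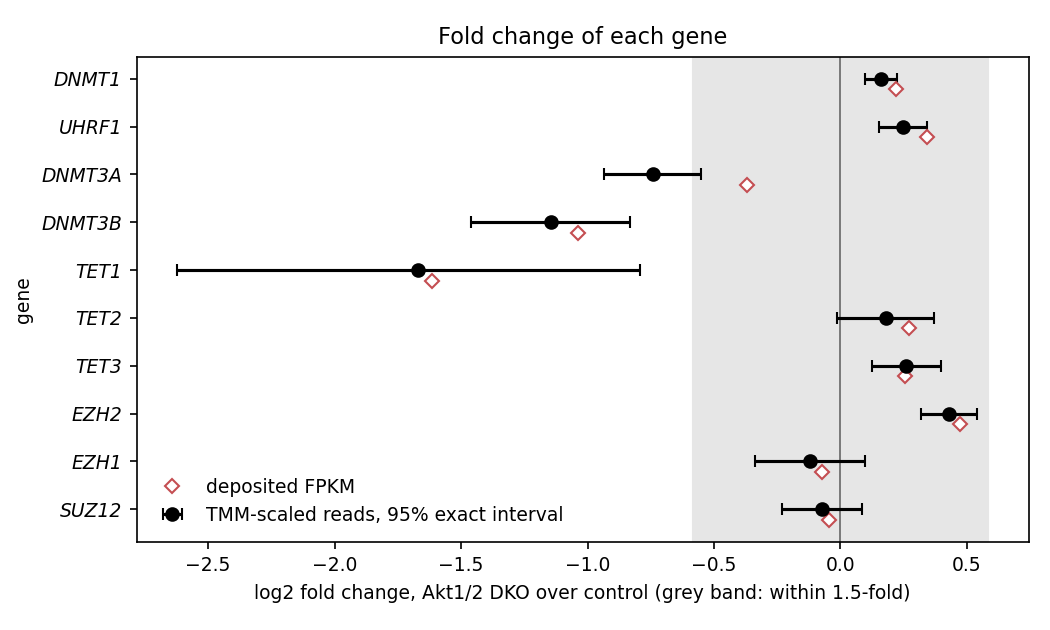
Log2 fold change of each gene, Akt1/2 DKO over control, from TMM-scaled reads with 95% exact intervals for counting error (black) and from deposited FPKM (open diamonds), with the grey band marking less than 1.5-fold. DNMT3A, DNMT3B and TET1 lie left of the band by reads, at -0.74, -1.14 and -1.67, and DNMT3A alone returns into it by FPKM, at -0.37.

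The maintenance pair was higher in Akt1/2 DKO cells by a small amount. DNMT1 (ENSG00000130816, chromosome 19, 10133345-10231286), which copies methylation at replication, had 3630 reads in control and 4498 in Akt1/2 DKO cells, 1.12-fold higher (95% interval 1.07 to 1.17). UHRF1 (ENSG00000276043, chromosome 19, 4903080-4962154), the reader of hemimethylated CpG, had 1590 and 2092 reads, 1.19-fold higher (1.11 to 1.27). The ratio of UHRF1 to DNMT1 reads, which does not depend on how the libraries are scaled, was 0.438 in control and 0.465 in Akt1/2 DKO cells, a change of 1.06-fold whose interval (0.98 to 1.15) held no change. Exons of DNMT1 overlap those of S1PR2 on the same strand, but S1PR2 had only 22 and 28 reads.

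Both de novo methyltransferases were lower. DNMT3B (ENSG00000088305, chromosome 20, 32762385-32809356) had 257 reads in control and 129 in Akt1/2 DKO cells, a log2 fold change of -1.14 or 2.21-fold lower (95% interval 1.78 to 2.75), and its FPKM, the level per transcript length, was 6.11 and 2.98. DNMT3A (ENSG00000119772, chromosome 2, 25227855-25342590) had 572 and 379 reads, a log2 fold change of -0.74 or 1.67-fold lower (1.47 to 1.91). Its FPKM was 10.03 and 7.77, only 1.29-fold lower, so the call for DNMT3A depends on the unit. The ratio of DNMT3A to DNMT3B reads was 2.23 in control and 2.94 in Akt1/2 DKO cells, a 1.32-fold change (1.03 to 1.69). By FPKM this ratio was 1.64 and 2.61, a 1.59-fold change.

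The gap between the units for DNMT3A can be read as a gap in implied transcript length. The reads a gene has per unit of FPKM grow with the transcript length used to compute the FPKM. A change in this quotient between libraries, taken relative to the median gene, is then a shift in that length. This holds if both values rest on the same assignment of reads, which the processing notes do not state. For DNMT3A it shifted by -0.33 on the log2 scale, so that the implied length decreased by 20.4% from control to Akt1/2 DKO cells. Of 11045 genes with an FPKM of at least 1 in both libraries, 5.84% shifted by as much or more. The other 9 genes lay between -0.06 and 0.05. TET1, which has an FPKM under 1 and is not among those 11045, is known only to 0.06 because of rounding. GENCODE release 29 draws 15 DNMT3A transcripts. Of these, 4 begin within 1 kb of the outer end of the gene, with 1.78 to 9.50 kb of exons, and 3 begin within 1 kb of inner RefSeq starts about 90.3 kb downstream, with 0.656 to 3.59 kb. Values for single transcripts were not analysed here, and which transcripts carried the shift was not tested.

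Set against DNMT1, the de novo enzymes made up less of the DNMT pool. DNMT3A and DNMT3B together had 0.228 reads per DNMT1 read in control and 0.113 in Akt1/2 DKO cells, a ratio of 0.495 between libraries (95% interval 0.439 to 0.557). By FPKM the ratio between libraries was 0.572. Of the summed FPKM of the 3 DNMT genes, DNMT1 held 80.7% in control and 88.0% in Akt1/2 DKO cells, DNMT3A 12.0% and 8.68%, and DNMT3B 7.29% and 3.33%.

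Among the erasers, TET1 was lower while TET3 was slightly higher. TET1 (ENSG00000138336, chromosome 10, 68560656-68694482) had 43 reads in control and 15 in Akt1/2 DKO cells, a log2 fold change of -1.67 or 3.18-fold lower, with a wide interval of 1.73 to 6.16. It was scarce in both, at an FPKM of 0.46 and 0.15. TET2 (ENSG00000168769, chromosome 4, 105145875-105279816) had 408 and 512 reads, a ratio of 1.13 whose interval (0.99 to 1.29) held no change. TET3 (ENSG00000187605, chromosome 2, 73986404-74108176) had 766 and 1017 reads, 1.20-fold higher (1.09 to 1.32). TET3 was thus the most abundant TET transcript in both libraries and TET1 the least.

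TET1 reads per read of TET2 and TET3 together numbered 0.0366 in control and 0.00981 in Akt1/2 DKO cells, a ratio of 0.268 between libraries (0.148 to 0.484). By FPKM it was 0.272. Of the summed TET FPKM, TET3 held 62.9% in control and 64.3% in Akt1/2 DKO cells, TET2 33.5% and 34.7%, and TET1 3.54% and 0.991%.

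Of the PRC2 core, the proliferation-linked EZH2 was higher, while its paralog EZH1 and its partner SUZ12 were not detectably different at this depth. EZH2 (ENSG00000106462, chromosome 7, 148807383-148884321) had 1097 reads in control and 1638 in Akt1/2 DKO cells, a log2 fold change of 0.43 or 1.35-fold higher (95% interval 1.25 to 1.46), below the 1.5-fold threshold. EZH1 (ENSG00000108799, chromosome 17, 42700275-42745049), the paralog typical of resting cells, had 345 and 352 reads, a ratio of 0.920 (0.791 to 1.07). SUZ12 (ENSG00000178691, chromosome 17, 31937018-32001045) had 648 and 683 reads, a ratio of 0.951 (0.853 to 1.06). Pseudogenes named for TET1, EZH2 and SUZ12 exist (TET1P1, EZH2P1 and SUZ12P1). The deposited estimates for all 10 genes were whole numbers in both libraries. Whether reads of the pseudogenes entered these estimates was not tested.

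Within the library, EZH2 was higher relative to EZH1 and to SUZ12 in Akt1/2 DKO cells. The ratio of EZH2 to EZH1 reads was 3.18 in control and 4.65 in Akt1/2 DKO cells, a 1.46-fold change (1.24 to 1.73), and by FPKM also 1.46-fold. The ratio of EZH2 to SUZ12 reads was 1.69 and 2.40, a 1.42-fold change (1.24 to 1.62). Of the summed EZH FPKM, EZH2 held 83.3% in control and 87.9% in Akt1/2 DKO cells.

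By FPKM, DNMT1 led in both libraries, at 67.63 in control and 78.73 in Akt1/2 DKO cells, and TET1 came last. EZH2 (43.17) and UHRF1 (42.38) had overlapping counting intervals in control cells, whereas in Akt1/2 DKO cells EZH2 (59.93) stood above UHRF1 (53.76). SUZ12 was in the fourth place in both, at 14.87 and 14.41. In control cells DNMT3A (10.03), EZH1 (8.65) and TET3 (8.17) followed, each overlapping the next, then DNMT3B (6.11) and TET2 (4.35). In Akt1/2 DKO cells the order was TET3 (9.74), EZH1 (8.23) and DNMT3A (7.77), the last pair overlapping, then TET2 (5.25) and DNMT3B (2.98). DNMT3A thus stood in the fifth place in control and in the seventh in Akt1/2 DKO cells, and DNMT3B stood below TET2 in the latter.

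**Figure D2:**
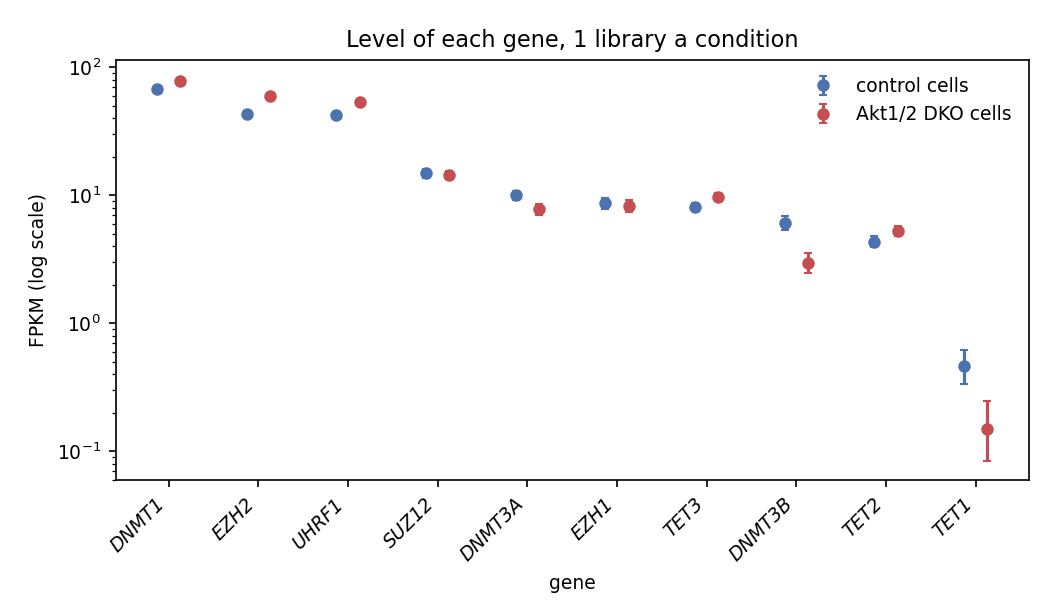
FPKM of each gene on a log axis in control (blue) and Akt1/2 DKO cells (red), with 95% Poisson intervals for counting error, ordered by the control level. Levels run from 67.63 (DNMT1) to 0.46 (TET1) in control cells, and DNMT3B (6.11 and 2.98) and TET1 (0.46 and 0.15) show the clearest separation.

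The surroundings of the 10 genes were described by chromosome and by neighbours within 1 Mb. The 10 genes lie on 7 chromosomes whose median log2 fold changes, over genes with at least 50 reads, ranged from -0.06 to 0.09. Among genes starting within 1 Mb, DNMT3A had 12 neighbours with a median of 0.00, DNMT3B 18 with -0.05 and TET1 17 with 0.18. EZH2 had 13 neighbours with a median of -0.04, of which 4 were at least 1.5-fold lower and 0 higher. TET2, which was not lower itself, had 5 neighbours with a median of -0.49. The part of regional differences in the values of the 10 genes was not tested.

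The other genes of these pathways were described in lists, by counts past 1.5-fold and the median log2 fold change. Each count is to be read against the 15.9% of all genes tested that were higher and the 15.0% that were lower, and no list was given a test. Among the 11 other PRC2 subunits and regulators, PHF19, an accessory subunit that reads methylated H3K36 and guides PRC2 to chromatin, had 135 reads in control and 847 in Akt1/2 DKO cells, 5.66-fold higher (95% interval 4.71 to 6.84). This was a larger fold than that of any of the 10 genes. EED (283 and 298 reads), RBBP4 (3034 and 3170), RBBP7 (2130 and 2114), JARID2 (210 and 248), AEBP2 (393 and 395), PHF1 (418 and 390), MTF2 (388 and 405), EPOP (170 and 233) and LCOR (695 and 972) stayed within 1.5-fold. The RBBP4 estimates were not whole numbers, as estimates can be when reads are shared between loci. EZHIP, an inhibitor of PRC2, passed the fold with only 8 and 5 reads, and its interval held no change. The list had 1 gene higher and 1 lower, with a median of -0.09.

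PRC1, which ubiquitinates histone H2A and whose CBX subunits bind methylated H3K27, was described next. Of 25 genes of PRC1 and the opposing PR-DUB deubiquitinase, 4 were higher and 5 lower, close to the shares of 15.9% and 15.0% over all genes tested, with a median of 0.00. CBX2 had 333 and 1266 reads (3.43-fold higher, 3.04 to 3.88) and CBX8 210 and 661 (2.84-fold, 2.43 to 3.33). BCORL1, a corepressor of the variant PRC1 family, had 1053 and 544 reads, 2.15-fold lower (1.93 to 2.38), and its paralog BCOR 3733 and 2249 (1.84-fold lower, 1.75 to 1.94). The remaining calls were CBX7 (577 and 1056 reads) and PCGF6 (138 and 240), which were higher, and RNF2 (237 and 161), PHC2 (886 and 567) and BAP1 (1537 and 1061), which were lower.

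Of 18 cofactors and readers of DNA methylation tested, 0 were higher and 4 lower, beside 15.9% and 15.0% over all genes tested, with a median of -0.15. MBD4, a glycosylase for mismatches at CpG, had 526 and 341 reads (1.71-fold lower, 1.49 to 1.97), and ZBTB38, a methyl-CpG binding zinc finger protein, 339 and 230 (1.63-fold lower, 1.38 to 1.94). ZBTB4 had 487 and 333 reads and GADD45B 162 and 119. MBD4, ZBTB38, BAP1 and SETD2 lie on chromosome 3, whose 666 genes with at least 50 reads had a median log2 fold change of -0.53. The part of that chromosome-wide difference in the values of these genes was not tested.

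Writers of other histone marks differed little. In 11 writers of H3K9, H3K36 and H3K79 methylation, SUV39H1 was higher (48 and 87 reads) and SETD2 lower (1519 and 1081), with a median of 0.01. None of the 7 H3K27 demethylases and KMT2 genes, whose products oppose Polycomb, passed 1.5-fold in either direction, and the median was 0.07. Of 16 enzymes that supply the methyl donor or process 2-oxoglutarate, the cosubstrate of TET enzymes, only MAT1A passed, with 14 and 2 reads, and the median was 0.08. MAT1A passed the read filter only through its control reads, so the direction of its call was fixed by the filter.

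The genes of S phase and mitosis had a median of 0.24, with 4 of 24 higher and 0 lower, beside 15.9% and 15.0% over all genes tested. GMNN had 484 and 1106 reads (2.06-fold higher, 1.85 to 2.30), E2F2 827 and 1764 (1.92-fold, 1.77 to 2.09) and CDT1 857 and 1784 (1.88-fold, 1.73 to 2.04). The fourth was RB1, which restrains E2F factors, with 366 and 635 reads (1.56-fold, 1.37 to 1.78). Within 1.5-fold the list was mixed, with counting intervals on both sides of no change. PCNA had 4244 and 6121 reads (1.30-fold higher, 1.25 to 1.35) and CCNB1 2187 and 1818 (1.33-fold lower, 1.25 to 1.42). MCM2, MCM4, TYMS, TK1 and TOP2A also had intervals below no change, and others had intervals above it. DNMT1, UHRF1 and EZH2 are themselves transcribed mainly in dividing cells. The part of the S phase list in their difference was not tested.

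Genes commonly kept silent by these systems were described last. The read filter summed both libraries, so a gene with few reads in 1 library was tested only where the other had enough. The direction of such calls (PLAGL1, NNAT, PTGS2, SLIT2 and HOXA9 higher, MAEL and AOX1 lower) was fixed by the filter. Counts of higher and lower genes in these lists carry that limit. Of 22 germline genes held off by DNA methylation in most somatic cells, 8 had 0 reads in both libraries. Among the 10 tested, 0 were higher and 3 lower, with a median of 0.01. Several of those tested were already expressed in control cells, among them MAGEA4 (2814 and 2965 reads), MAGEA3 (1399 and 1664) and MAGEA1 (1125 and 1359). The median is thus not one of silent genes. PRAME had 212 and 91 reads (2.58-fold lower, 2.01 to 3.34) and CTAG1B 995 and 503 (2.19-fold lower, 1.97 to 2.45), though the CTAG1B estimates were not whole and it has a near-identical copy. MAEL had 12 reads in control and 0 in Akt1/2 DKO cells. A count of 0 allows up to 3 reads, or 0.301 CPM (reads scaled to a common library size) in the control and 0.280 CPM in the Akt1/2 DKO library.

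Imprinted genes are read from a single parental allele that methylation marks, in some cases only for certain transcripts or tissues. They included calls in both directions, with 3 of 12 tested higher and 4 lower and a median of 0.10. Over all genes tested the shares were 15.9% and 15.0%. PLAGL1 had 0 reads in control and 156 in Akt1/2 DKO cells, at least 37.7-fold higher. That is the lower limit of the interval, with the control at its count of 0 reads. PEG3 was higher, with 44 and 120 reads (2.46-fold, 1.73 to 3.56), although its estimates were not whole. GRB10 had 91 and 22 reads (4.59-fold lower, 2.85 to 7.68) and GNAS 7670 and 4464 (1.90-fold lower, 1.84 to 1.98). The others past the fold were NNAT (5 and 12 reads), NDN (58 and 41) and CDKN1C (35 and 11). The interval of NNAT held no change.

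Of 18 genes known for CpG island methylation in prostate cancer, 5 had 0 reads in both libraries and 9 were tested, with 4 higher and 1 lower and a median of 0.16. CD44, a cell adhesion receptor, had 21 and 542 reads (23.3-fold higher, 15.1 to 37.9). PTGS2 (1 and 31 reads), RARB (26 and 48) and HIC1 (15 and 43) were also higher and AOX1 (46 and 4) lower. GSTP1, the classic methylated gene of this cancer, was among those at 0 in both.

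Of 17 genes known as Polycomb targets in prostate cancer or development, 5 had 0 reads in both libraries and 10 were tested, with 4 higher and 2 lower and a median of 0.04. The cardiac homeobox gene NKX2-5 had 80 and 274 reads (3.09-fold higher, 2.40 to 4.01), and SLIT2 (1 and 94 reads), HOXA9 (2 and 96) and PAX2 (10 and 40) were higher as well. The adhesion gene CDH1 had 5349 and 3343 reads (1.77-fold lower, 1.70 to 1.85), and CDKN1C, which is also in the imprinted list, was lower. Any link between these genes and the 10 enzymes was not tested, since methylation and histone marks were not measured.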

How the data were processed

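RNA of CWR22rv1 Akt1/2 DKO and control cells was sequenced, 1 library each. For each gene the authors deposited an estimated count, with no normalization, and an FPKM value, which is scaled to library size and to transcript length. The submitters' processing notes name fastp 0.20.0, TopHat, Cufflinks, edgeR and the build GRCh38.p10, without giving roles. The deposited comparison tables hold the authors' fold changes and p-values and were not used.

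Each estimate was rounded. The read filter asked for 10 or more in both libraries together, and TMM factors from edgeR 4.0.16 (R 4.3.3) set the library size ratio, Akt1/2 DKO to control, at 1.11. Fold changes carry exact Clopper-Pearson 95% intervals given the sum of reads (scipy 1.17.1), and within-library ratios carry log-normal intervals. For the fold change itself a library under 3 reads was set to 3 reads, while the intervals used the reads as counted. A gene was counted as higher or lower at 1.5-fold, with no p-value, since 1 library per condition gives no replicate spread. The steps were tested on simulated data.

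The 10 genes and the 11 gene lists were chosen with earlier results of these data known. From each list, up to 4 genes with the largest changes among those past 1.5-fold with at least 100 reads in both libraries were named, with every other PRC2 subunit. Other list genes, GSTP1 included, were named after their values were seen. Positions are from GENCODE release 29 (GRCh38), in which 19571 of 19607 identifiers were found, and promoter windows are from RefSeq (GRCh38.p14). Alternatives were total count, DESeq2 1.42.0 and upper-quartile scaling, FPKM, 3 read filters, a 2-fold threshold, intervals beyond no change and a prior count of 1. Protein sequences were not analysed here, and some list genes are not reported here.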

Additional observations from a re-analysis of the deposited data

How the results depend on the processing

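The count of 3 lower genes (DNMT3A, DNMT3B and TET1) was unchanged under total count, DESeq2 and upper-quartile scaling, and under no filter, at least 50 reads in both libraries or at least 10 in each. It was 2 with FPKM and 2 with a 2-fold threshold, DNMT3A being lost each time. The count of higher genes was 0 under each of these and 4 when an interval beyond no change replaced the fold. DNMT3A and DNMT3B over DNMT1 moved from 0.495 to 0.572 with FPKM, an alternative chosen after seeing the data. With FPKM the log2 fold change was 0.34 for UHRF1 and -0.37 for DNMT3A. List medians moved in 9 cases. With FPKM the CpG island list had 0.60, the germline list 0.14 and the PRC1 list 0.10. With no filter the CpG island list had -0.05 and the germline and imprinted lists -0.15 each. The value -0.15 is what any gene has when both libraries are set to the floor of 3 reads, so it is not a measured difference. The imprinted list had -0.21 with at least 10 reads in each library, and the Polycomb list 0.16 with at least 50 reads in both and -0.11 with at least 10 in each. The counts over all genes were 1333 higher and 1058 lower at 2-fold, and 3963 and 3917 by interval. No paired analysis was possible because there is only 1 library of each kind, and for the same reason no library could be left out. Among the 10 genes depth limits TET1 most, with 58 reads, and several list genes have fewer.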
